A study of Mus musculus with 20 samples.

Results

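The 6 genes described here belong to the vessel wall and to the red cell, and they were followed in adult mouse retina and newborn mouse cortex. They were Cldn5, Tie1, Slc2a1, Hba-a1, Ermap and Slc4a1, chosen by the gene symbol of the platform annotation. Each was read by 1 probe, so they made up 6 of the 10500 probes and 6 of the 9230 named genes on the array, and all 6 were tested. The retina RNA was 1 pool from adult C57/B6 mice, and the cortex RNA was 1 pool from newborn Swiss-Webster mice (postnatal day 1). Biotin-labelled RNA of each pool went on 5 CodeLink arrays at a first site and on 5 more at site 2, which gave 4 groups of 5 and 20 arrays in all. Since all arrays of a group carry RNA of the same pool, every p-value below measures technical spread between arrays and not between animals. Tissue, strain and age change together between the pools and cannot be told apart. The labels name no genetic change or treatment in either pool, and give no sex, number of animals or dissection detail.

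Blood vessels of brain and retina share a barrier. Endothelial cells seal their borders with tight junctions, in which claudin-5, the product of Cldn5, is a main strand protein. Tie1 encodes an endothelial receptor tyrosine kinase that acts with Tek, the angiopoietin receptor. Slc2a1 encodes the glucose transporter GLUT1, which carries glucose across barrier endothelium and is also made by retinal pigment epithelium and glia. The other 3 genes belong to the red cell. Hba-a1 encodes adult alpha-globin, Slc4a1 encodes band 3, the anion exchanger of the red cell membrane, and Ermap encodes an erythroid membrane protein of the immunoglobulin superfamily. In RNA from a whole tissue, fewer cells of a type and less RNA per cell cannot be told apart.

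The 250 bases before the annotated start are shown for the 5 members that the RefSeq promoter table holds (GRCm38.p6), because they let the regulatory regions of vessel and red cell genes be read side by side. They run 5′ to 3′ on the gene's own strand. Capitals mark any match, on either strand, to the motifs GGAA (ETS core), GATAA (the GATA factor core), CCAAT (named after its letters), TATAA (the core of the TATA box), CACCC (named likewise) and ACGTG (hypoxia response core). The windows are chr16:18776597-18776846 (+ strand) for Cldn5, chr4:118489850-118490099 (- strand) for Tie1, chr4:119108495-119108744 (+ strand) for Slc2a1, chr11:32283422-32283671 (+ strand) for Hba-a1 and chr4:119189996-119190245 (- strand) for Ermap.
Cldn5: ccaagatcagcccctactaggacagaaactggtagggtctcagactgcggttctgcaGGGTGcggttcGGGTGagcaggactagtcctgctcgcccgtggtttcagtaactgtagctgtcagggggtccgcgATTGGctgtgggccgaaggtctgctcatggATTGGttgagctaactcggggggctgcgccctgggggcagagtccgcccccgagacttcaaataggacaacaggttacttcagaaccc
Tie1: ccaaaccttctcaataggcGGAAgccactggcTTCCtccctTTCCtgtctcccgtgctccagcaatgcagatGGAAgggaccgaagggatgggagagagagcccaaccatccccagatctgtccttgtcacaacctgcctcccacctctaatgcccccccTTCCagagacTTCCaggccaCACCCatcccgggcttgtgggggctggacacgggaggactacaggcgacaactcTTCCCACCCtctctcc
Slc2a1: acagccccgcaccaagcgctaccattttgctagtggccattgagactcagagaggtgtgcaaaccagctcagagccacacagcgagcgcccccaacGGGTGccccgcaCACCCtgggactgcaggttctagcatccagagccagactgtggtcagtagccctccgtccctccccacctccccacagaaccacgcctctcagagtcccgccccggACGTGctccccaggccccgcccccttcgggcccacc
Hba-a1: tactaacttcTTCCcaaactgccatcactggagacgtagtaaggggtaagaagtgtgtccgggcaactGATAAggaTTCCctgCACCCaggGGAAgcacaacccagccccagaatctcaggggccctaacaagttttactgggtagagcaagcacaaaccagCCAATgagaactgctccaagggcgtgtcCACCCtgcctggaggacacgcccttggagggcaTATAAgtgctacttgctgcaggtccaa
Ermap: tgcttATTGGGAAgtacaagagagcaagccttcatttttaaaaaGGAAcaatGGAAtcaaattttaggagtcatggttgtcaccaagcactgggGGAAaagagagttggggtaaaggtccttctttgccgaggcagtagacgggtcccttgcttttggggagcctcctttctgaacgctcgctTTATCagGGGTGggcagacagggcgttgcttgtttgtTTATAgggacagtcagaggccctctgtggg

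The Tie1 window held 7 GGAA matches and 2 CACCC matches, with no GATAA. The Cldn5 window held 2 CCAAT and 2 CACCC matches and no GGAA. The Slc2a1 window held no GGAA, 2 CACCC matches and 1 ACGTG match, the last of these 36 bases before the start. Both red cell windows held 1 match each to GATAA, to the motif CCAAT and to TATAA, the last of them 27 bases before the start in Hba-a1 and 30 bases before it in Ermap. In Hba-a1 all of these lay on the gene's own strand, and in Ermap all lay on the opposite strand. The CCAAT match was 88 bases before the start in Hba-a1 and 245 bases before it in Ermap. The red cell windows held GGAA too, with 3 matches in Hba-a1 and 4 in Ermap, and CACCC, with 2 and 1. In Ermap, 1 GGAA match overlapped the CCAAT match. Across 32851 windows of the same length, 93.4% held GGAA, 22.6% GATAA, 33.8% CCAAT, 22.8% TATAA, 52.0% CACCC and 16.6% ACGTG. A match describes the letters only. The Hba-a1 window and that of its neighbouring copy Hba-a2 were identical over 247 aligned bases. Where a probe pairs with both copies its signal would join them, and the probe sequence was not used here, so the Hba-a1 values may stand for both. Slc2a1 and Ermap lie on chromosome 4 with 1 annotated gene, Zfp691, between them, and Tie1 lies on the same chromosome.

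The deposited intensities have no absolute unit. The array medians ran from 0.927 to 0.963, so 1 is about the level of the median probe. Intensities of different probes cannot be compared as amounts of RNA, so no gene is ranked against another, and the sums over marker lists given later can be dominated by a single bright probe. The labels were checked against marker genes. All 6 measured rod photoreceptor genes were higher in retina at both sites, and all 6 measured genes of cortical neurons were lower. Site 2 arrays reached brighter values than first site arrays. Their brightest probes lay between 166 and 272, against 98.4 to 125 at the first site. Array 5 of cortex at site 2 stood apart from its group, with 643 probes at least 2-fold above the other 4 arrays. Array 2 of retina at site 2 had 177 such probes. No other array had more than 116.

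A gene was called when its adjusted p was under 0.05 (limma's moderated test on log2 intensity, Benjamini-Hochberg over 10339 probes) and the difference was at least 2-fold. Cldn5, Tie1 and Hba-a1 were lower in retina than in cortex at both sites, Slc2a1 was higher in retina at both, and Ermap and Slc4a1 were not called at either. At the first site 1 member was called higher and 3 lower, where 11.9% of all tested probes were called higher and 13.0% lower (24.9% in either direction). At site 2 the split was the same, 1 higher and 3 lower, where 11.1% and 13.5% of probes were called (24.6% in either direction). Over the members the median log2 difference was -1.09 at the first site, against -0.04 over all probes, and -1.23 at site 2, against -0.05. The retina and cortex arrays did not overlap for 5 of the 6 members at each site, which held for 53.3% of all probes at the first site and 48.2% at site 2.

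**Figure D1:**
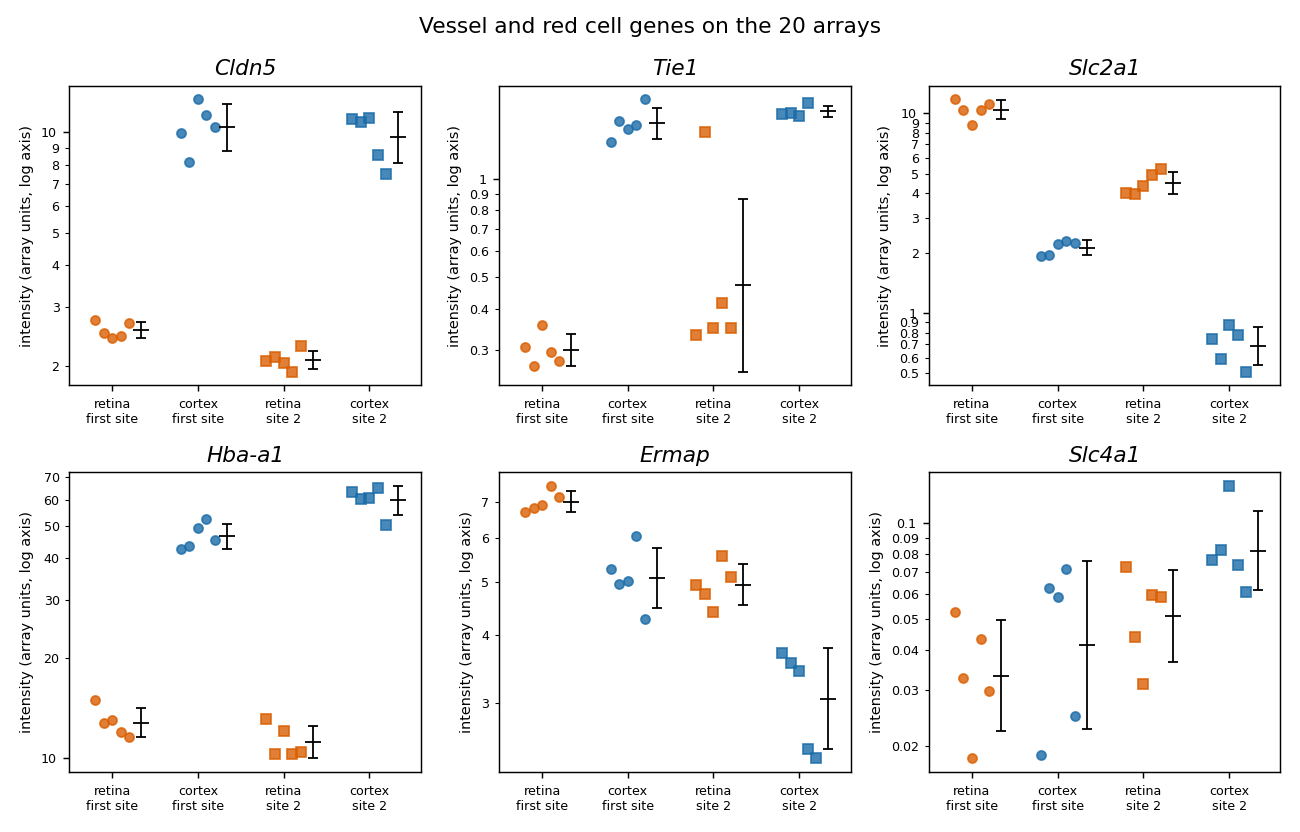
Intensity of the 6 genes on each of the 20 arrays, in the deposited unitless scale and on a logarithmic axis that differs between panels. Circles are first site arrays and squares are site 2 arrays, with retina in orange left of cortex in blue, and each bar shows the geometric mean with 1 SD of the log2 values on either side. Cldn5 and Hba-a1 lie lower on every retina array than on any cortex array, Slc2a1 lies higher, and 1 retina array at site 2 (1.39) carries the wide bar of Tie1.

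Cldn5 was lower in retina. At the first site its intensity was 2.75, 2.50, 2.42, 2.46 and 2.68 on the retina arrays, against 9.93, 8.14, 12.6, 11.3 and 10.4 on the cortex arrays. Its site 2 values were 2.07, 2.12, 2.04, 1.92 and 2.29 on the retina arrays, against 10.98, 10.74, 11.08, 8.59 and 7.53 on the cortex arrays. The highest retina array of all 10 lay under the lowest cortex array. The cortex groups of the 2 sites overlapped, while every retina array of site 2 lay below every retina array of the first site. The log2 difference, retina minus cortex, was -2.02 (SE 0.12, adjusted p = 1.3e-11 by limma) at the first site, a 4.05-fold lower level. The site 2 difference was -2.21 (SE 0.12, adjusted p = 3.36e-12 by limma), 4.64-fold lower. The means differed more between tissues than arrays did within them, and cortex arrays varied more (SD 0.23 and 0.25 log2 units at the first site and site 2) than retina arrays (0.08 and 0.09).

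Tie1, the receptor, was also lower in retina. Its first site intensities were 0.306, 0.267, 0.358, 0.295 and 0.277 in retina, against 1.30, 1.50, 1.42, 1.46 and 1.75 in cortex. At site 2 the retina arrays read 0.333, 1.39, 0.350, 0.416 and 0.349, against 1.58, 1.59, 1.56 and 1.70 on 4 cortex arrays, the fifth being blank. Array 2 of retina at site 2, the same array that stood apart above, was nearly as high as the lowest cortex array of site 2 (1.56). It was above the lowest cortex array of the first site (1.30). The other retina arrays of site 2 were near the first site's retina level. The log2 difference was -2.31 at the first site (SE 0.28, adjusted p = 1.01e-06 by limma), 4.94-fold lower in retina. The site 2 difference was -1.77 (SE 0.30, adjusted p = 4.74e-05 by limma), 3.40-fold lower, on 9 arrays. Without that retina array it was -2.16 at site 2. By mean level the groups ran from cortex at site 2 through cortex at the first site and retina at site 2 to retina at the first site, and each pair of neighbours overlapped, with that array included.

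Slc2a1 ran the other way. First site arrays read 11.7, 10.4, 8.77, 10.4 and 11.2 in retina, against 1.92, 1.95, 2.22, 2.31 and 2.26 in cortex. Site 2 arrays read 3.98, 3.97, 4.34, 4.91 and 5.26 in retina, against 0.739, 0.590, 0.876, 0.776 and 0.509 in cortex. Retina arrays were above all cortex arrays, and within each tissue every site 2 array was below every first site array. The 4 groups therefore stood in an order without overlap between neighbours: retina at the first site, retina at site 2, cortex at the first site, cortex at site 2. The log2 difference between tissues was 2.30 at the first site (SE 0.13, adjusted p = 1.13e-11 by limma), 4.92-fold higher in retina. The difference at site 2 was 2.70 (SE 0.13, adjusted p = 1.04e-12 by limma), 6.51-fold higher.

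Hba-a1 was lower in retina on every array. At the first site it read 14.9, 12.8, 13.0, 12.0 and 11.6 in retina, against 42.7, 43.5, 49.4, 52.4 and 45.4 in cortex. At site 2 it read 13.1, 10.3, 12.1, 10.3 and 10.5 in retina, against 63.1, 60.4, 60.6, 65.2 and 50.4 in cortex. The retina groups overlapped each other, and so did the cortex groups. The log2 difference between tissues was -1.86 at the first site (SE 0.09, adjusted p = 2.2e-12 by limma), 3.63-fold lower in retina. The difference at site 2 was -2.41 (SE 0.09, adjusted p = 4.72e-14 by limma), 5.32-fold lower.

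Ermap differed little between the tissues. First site arrays read 6.69, 6.81, 6.90, 7.48 and 7.15 in retina, against 5.28, 4.96, 5.02, 6.06 and 4.27 in cortex. Site 2 arrays read 4.94, 4.76, 4.41, 5.56 and 5.11 in retina, against 3.70, 3.56, 3.44, 2.47 and 2.38 in cortex. Retina arrays were above cortex arrays within each site, but retina at site 2 overlapped cortex at the first site. The log2 difference was 0.46 at the first site (SE 0.12, adjusted p = 0.00273 by limma) and 0.69 at site 2 (SE 0.12, adjusted p = 5.56e-05 by limma). These are 1.38-fold and 1.62-fold, under the 2-fold minimum.

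Slc4a1 was near the bottom of the intensity range. All 20 of its values lay under 0.195, the 25th percentile of all positive intensities, and 8 lay under the 5th percentile, 0.0448. At the first site it read 0.0524, 0.0325, 0.0182, 0.0433 and 0.0297 in retina, against 0.0187, 0.0624, 0.0586, 0.0715 and 0.0248 in cortex. At site 2 it read 0.0730, 0.0438, 0.0311, 0.0596 and 0.0585 in retina, against 0.0766, 0.0825, 0.131, 0.0738 and 0.0608 in cortex. The groups overlapped at both sites. The log2 difference was -0.32 (95% interval -1.09 to 0.45, adjusted p = 0.482 by limma) at the first site. The site 2 difference was -0.68 (95% interval -1.45 to 0.09, adjusted p = 0.117 by limma). No detection call was used here, so whether this signal exceeds background is not known.

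**Figure D2:**
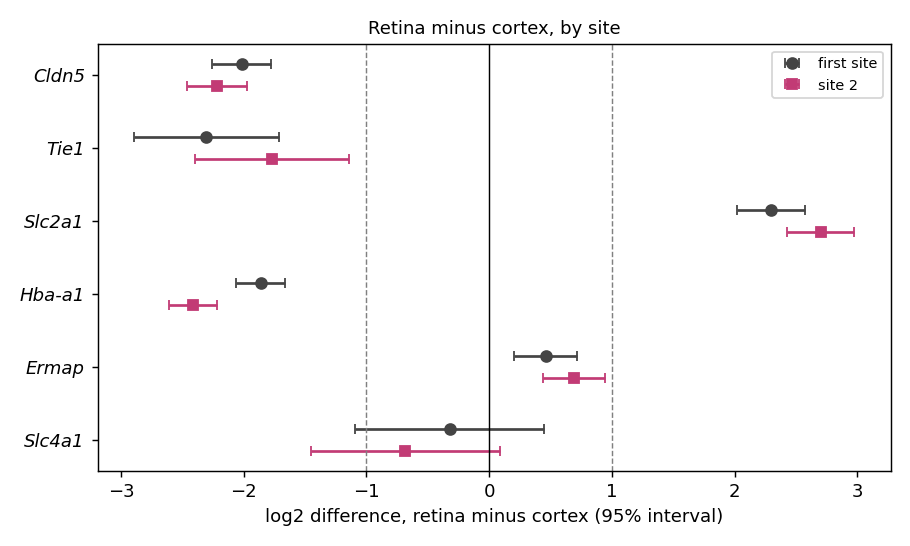
Log2 difference, retina minus cortex, of the 6 genes at the first site (black circles) and site 2 (pink squares), with 95% intervals from the limma fit on 5 arrays per group (4 for Tie1 in cortex at site 2). Dashed lines mark the 2-fold minimum. Cldn5, Tie1 and Hba-a1 lie left of the lower line and Slc2a1 right of the upper line at both sites, while Ermap and Slc4a1 lie between the lines.

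The size of the tissue difference was then compared between the sites. Over all probes, 0.725% were called for this difference, and 0 of the 6 members were. Hba-a1 came closest, with a retina to cortex difference that was lower at site 2 than at the first site by a log2 value of -0.55 (SE 0.13, adjusted p = 0.0273 by limma), which is 1.47-fold and so under the minimum. Its adjusted p was at or above 0.05 in 8 of 30 alternative settings. The brightest probes were brighter at site 2, as given above. With quantile normalization, which gives all arrays the same range of values, the difference was -0.33 (1.26-fold, adjusted p = 0.106 by limma). The other members had adjusted p-values from 0.212 (Slc2a1, 0.40, 95% interval 0.02 to 0.79) to 0.709 (Slc4a1, -0.36, 95% interval -1.45 to 0.72).

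Arrays of the same pool were also compared between the sites. Slc2a1 was called lower at site 2 in both tissues, by a log2 difference, site 2 minus first site, of -1.23 in retina (SE 0.13, adjusted p = 7.78e-07 by limma) and -1.63 in cortex (SE 0.13, adjusted p = 3.43e-08 by limma). It was the only member called in either tissue, where 6.24% of probes were called in retina (4.79% higher, 1.45% lower) and 7.21% in cortex (5.29% higher, 1.92% lower). Ermap was lower at site 2 without reaching 2-fold, by -0.50 in retina (adjusted p = 0.0022 by limma) and -0.74 in cortex (adjusted p = 7.54e-05 by limma). Slc4a1 in cortex was 1.98-fold higher at site 2 (0.99, 95% interval 0.22 to 1.76, adjusted p = 0.0344 by limma), just under the minimum. Leaving out 1 array at a time gave 0.70 to 1.18. The value passed the minimum without array 2, 3 or 4 of cortex at the first site or array 1, 4 or 5 of cortex at site 2. The adjusted p was at or above 0.05 in 8 of 30 alternatives, among them quantile normalization (0.53, adjusted p = 0.189 by limma) and leaving out array 1 or 5 of cortex at the first site or array 2 or 3 at site 2 (up to 0.106). With the floor at the 25th percentile the difference was 0. Cldn5, Tie1 and Hba-a1 differed by at most 0.66 in size. That value was of Tie1 in retina (adjusted p = 0.0633 by limma), and it was 0.27 without array 2 of retina at site 2. Hba-a1 was higher at site 2 in cortex (0.36, adjusted p = 0.00464 by limma). Cldn5 was lower at site 2 in retina (-0.30, adjusted p = 0.0429 by limma, up to 0.0934 in the alternatives). The site groups did not overlap for 3 members in retina and 2 in cortex, against 39.1% and 31.9% of all probes.

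**Figure D3:**
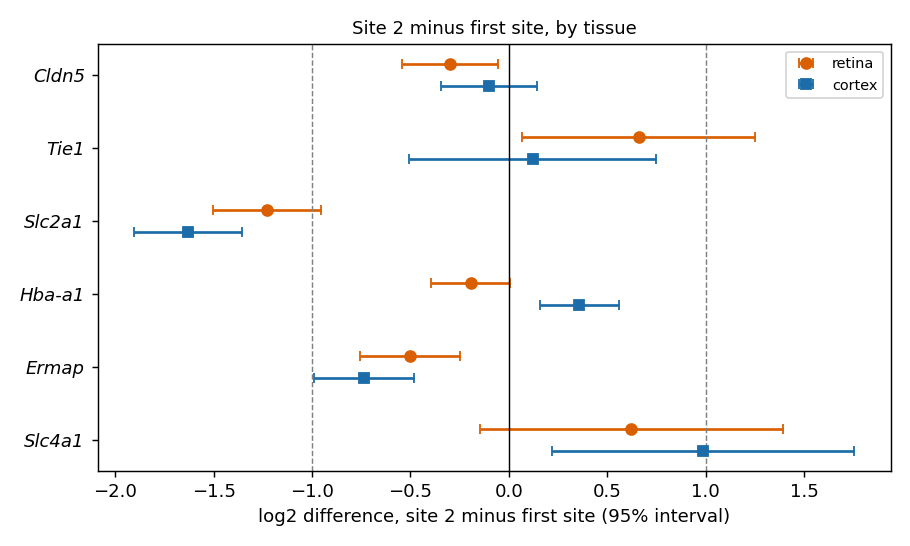
Log2 difference, site 2 minus first site, of the 6 genes in retina (orange circles) and cortex (blue squares), with 95% intervals from the limma fit. Dashed lines mark the 2-fold minimum. Slc2a1 lies below the lower line in both tissues, at -1.23 in retina and -1.63 in cortex.

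The genes that surround the members in their pathways were counted by the same rule. Over all tested probes 11.9% were called higher and 13.0% lower at the first site, and 11.1% and 13.5% at site 2. These shares belong beside every list count below. Levels of these genes are given as geometric means over the 5 arrays of a group, and where a pair of fold changes or log2 differences follows a gene, the first site comes before site 2. Among 35 measured genes of endothelial identity, Cldn5 and Tie1 included, 1 was called higher and 13 lower in retina at the first site, and 1 higher and 14 lower at site 2, with 11 lower at both. The median log2 difference of the list was -0.52 at the first site and -0.67 at site 2. At the first site Cd34, a surface sialomucin of endothelial and blood-forming cells, was at 0.168 in retina and 0.714 in cortex (4.25-fold lower in retina) and 3.43-fold lower at site 2. Rasip1, which endothelial cells need to form a lumen, was 3.31-fold lower in retina at the first site and 3.12-fold lower at site 2. Cav1, the caveolar coat protein, was the 1 gene higher at both, with 6.31 in retina, against 2.81 in cortex at the first site (2.25-fold), and 4.79 in retina, against 1.82 in cortex, at site 2 (2.64-fold). Acvrl1, a BMP receptor of endothelium, differed by -0.11 at the first site and 0.11 at site 2. The calls of the list did not share 1 direction, since Cav1 was higher. In addition, 21 of 35 genes at the first site and 20 at site 2 were not called. An uncalled gene can still be lower by less than 2-fold. Several probes of the list were dim, among them Cd34, whose retina level at the first site was under the 25th percentile of intensities (0.195).

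Of the 6 measured angiopoietin and TIE genes, 0 were called higher and 3 lower in retina at each site. The 3 were Tie1, Tek and Angpt1. Angpt1, the activating ligand of Tek, was 7.36-fold lower at the first site, at 0.0608 in retina and 0.448 in cortex, and 4.79-fold lower at site 2. With a floor at the 25th percentile, above its retina level, it was 2.30-fold lower at the first site and 1.46-fold lower at site 2, where the call was lost. Tek was 2.04-fold lower at the first site (adjusted p = 0.00314 by limma) and 3.22-fold lower at site 2, and the first site value was under 2-fold in 5 alternative settings. These were quantile normalization (-0.96), the pseudocount (-0.97), and leaving out array 2 (-0.99) or 3 (-0.98) of retina or array 2 of cortex (-0.97) at the first site. Ptprb, the endothelial phosphatase that acts on Tek, differed by -0.11 and -0.03. The genes of vascular endothelial growth factor signalling went both ways. Of 9, 3 were called higher and 2 lower at the first site, and 2 higher and 3 lower at site 2. The receptor Kdr was higher in retina, at 8.69 against 1.95 in cortex at the first site (4.46-fold) and 7.85 in retina against 1.90 in cortex at site 2 (4.13-fold). The ligand Vegfa was 2.30-fold and 2.47-fold higher. The ligand Vegfd was 9.54-fold lower at the first site and 14.2-fold lower at site 2, and the co-receptor Nrp1 was 4.90-fold and 7.43-fold lower. With the floor at the 25th percentile Vegfd was 2.77-fold and 4.66-fold lower. Flt4, the lymphatic receptor, differed by -0.04 and -0.15.

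Claudins other than Cldn5 did not share 1 direction. Of 24 measured tight junction genes, 3 were called higher and 4 lower in retina at the first site, and 3 higher and 5 lower at site 2. Cldn11, the claudin of myelin and the arachnoid barrier, was 22.3-fold lower at the first site (0.0443 in retina, 0.987 in cortex) and 13.6-fold lower at site 2. Its retina level at the first site was under the 5th percentile of intensities, where signal above background is not known. With the floor at the 25th percentile it was 5.06-fold and 5.02-fold lower. Cldn10 was 4.02-fold and 4.04-fold lower. Marveld3, a tight junction membrane protein, was 7.73-fold higher at the first site (0.566 in retina, 0.0732 in cortex) and 7.70-fold higher at site 2. With the floor at the 25th percentile it was 2.90-fold and 5.24-fold higher. Cldn12 was 3.75-fold and 2.93-fold higher, and the epithelial claudin Cldn7 was 5.26-fold and 3.37-fold higher, from levels in cortex under the 25th percentile. With a floor at that percentile Cldn7 was no longer past 2-fold (0.41 and 0.51). Cldn18 differed by -0.08 and 0.09.

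Of 20 measured genes of barrier endothelium, 2 were called higher and 6 lower in retina at the first site, and 3 higher and 7 lower at site 2. The monocarboxylate transporter Slc16a1 was higher in retina, as Slc2a1 was. It stood at 17.2 in retina, against 3.20 in cortex at the first site (5.37-fold higher) and at 12.2 in retina, against 2.41 in cortex, at site 2 (5.06-fold higher). The iron exporter Slc40a1 was 3.66-fold and 3.97-fold lower, the amino acid transporter Slc7a5 2.88-fold and 2.96-fold lower, and the membrane protein Itm2a 2.68-fold and 2.45-fold lower. Car4, a carbonic anhydrase, was 4.56-fold and 5.52-fold lower, but not past 2-fold with the floor at the 25th percentile (-0.53 and -0.49). Pltp, a phospholipid transfer protein, differed by 0.03 and -0.11. Transporters of the barrier list thus stood on both sides.

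Among 7 measured facilitative glucose transporters, Slc2a1 was the only one called at both sites. Slc2a3, the neuronal transporter, was at 1.20 in retina, against 0.553 in cortex at the first site (2.18-fold higher, adjusted p = 0.000181 by limma), but at 0.417 in retina and 0.429 in cortex at site 2. It was named after its values were seen. Slc2a4, the insulin-responsive transporter, differed by -0.10 and 0.01.

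The wall outside the endothelium was read from 9 basement membrane genes and 12 genes of mural cells, the pericytes and smooth muscle of the vessel. Of the basement membrane genes 0 were higher in retina at either site, and 5 were lower at the first site and 4 at site 2. Nid1 was 16.4-fold lower at the first site, at 0.149 in retina and 2.43 in cortex, and 14.1-fold lower at site 2. With the floor at the 25th percentile it was 12.5-fold and 7.39-fold lower. Nid2 was 5.51-fold and 5.01-fold lower, Col4a1 4.66-fold and 4.49-fold lower, and Col4a2 4.26-fold and 3.31-fold lower. These encode nidogens and type IV collagen chains. Lama4, a laminin chain, was dim and differed by 0.04 and -0.36. Of the mural cell genes, 1 was higher and 0 lower at the first site, and 1 higher and 2 lower at site 2 (0 lower there with median centring). The median log2 difference of the mural list was -0.37 at the first site and -0.58 at site 2. The higher one was Vtn, vitronectin, at 35.0 in retina, against 2.81 in cortex at the first site (12.5-fold) and at 30.6 in retina, against 2.27 in cortex, at site 2 (13.4-fold). Myh11, the smooth muscle myosin, differed by 0.32 and -0.59 with no call.

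**Figure D4:**
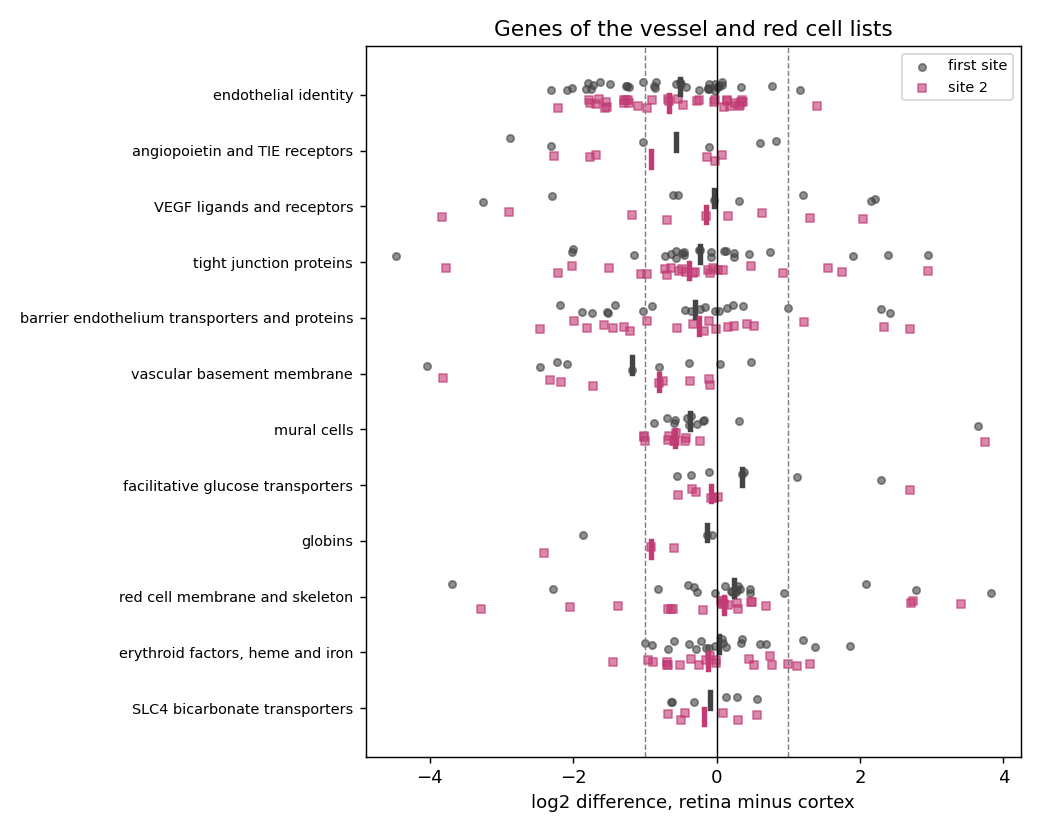
Log2 difference, retina minus cortex, of each measured gene in 12 lists of vessel and red cell genes, at the first site (black circles) and site 2 (pink squares), with thick bars at the list medians. Dashed lines mark the 2-fold minimum. The medians lie below 0 at both sites in all lists but the facilitative glucose transporters, the red cell membrane list and the erythroid list. In that order, these lie at 0.35, 0.24 and 0.03 at the first site, and at -0.08, 0.10 and -0.12 at site 2.

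The red cell genes did not follow Hba-a1 as a group. Of 3 measured globins, Hba-a1 was the only one called at either site. The embryonic globins were dim: Hbb-y was at 0.183 in retina, against 0.192 in cortex at the first site, and at 0.170 in retina, against 0.256 in cortex, at site 2. Hba-x was at 0.0431 in retina, against 0.0474 in cortex at the first site, and at 0.0410 in retina and 0.0771 in cortex at site 2. Hba-x at site 2 was called lower only when array 5 of cortex at site 2 was left out (-1.44, adjusted p = 0.0332 by limma). No adult beta-globin was among the named probes.

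Of 20 measured genes of the red cell membrane and skeleton, with Ermap and Slc4a1 among them, 3 were higher and 2 lower in retina at each site. These counts were near the shares over all probes, 11.9% higher and 13.0% lower at the first site and 11.1% and 13.5% at site 2. The water channel Aqp1 was 14.2-fold higher at the first site, at 3.61 in retina and 0.255 in cortex, and 10.6-fold higher at site 2. Stomatin, Stom, was 6.84-fold and 6.57-fold higher, and the urea transporter Slc14a1 was 4.23-fold and 6.71-fold higher. Add2, an adducin of the membrane skeleton, was 12.9-fold and 9.77-fold lower, and the glycophorin Gypc 4.85-fold and 4.11-fold lower. Xk differed by -0.02 and 0.09. These 5 called genes are also made outside red cells, and their place in the list is by their role in the red cell.

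Of 20 tested genes of erythroid factors, heme and iron, 3 were higher and 0 lower at the first site, and 3 higher and 1 lower at site 2. The count of lower genes at the first site was 1 with quantile normalization or median centring. It was also 1 without array 2, 3 or 4 of retina or array 1, 2 or 5 of cortex at that site. At site 2 it was 2 with quantile normalization. Cpox, an enzyme of heme synthesis, was the 1 gene called at both, 3.64-fold and 2.46-fold higher in retina. Fech, the last enzyme of that pathway, differed by 0.08 and -0.09. Alas2, the erythroid first enzyme, was on the array but had too few values to be tested. Of 6 measured bicarbonate transporters of the family of Slc4a1, 0 were called at either site, and Slc4a3 differed by 0.12 and 0.09.

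Markers of other cells moved with the members in part. Beside Cldn5, Tie1 and Hba-a1, 5 of 10 genes of meninges and fibroblasts were lower in retina at the first site and 6 at site 2, with 0 higher. Their summed intensity was 6.97 to 8.26 in retina, against 9.91 to 10.9 in cortex at the first site, and 7.16 to 7.61 in retina and 10.5 to 16.2 in cortex at site 2. Of 10 genes of microglia and macrophages, 3 were lower at the first site and 4 at site 2, with sums of 12.8 to 14.5 in retina and 16.8 to 19.0 in cortex at the first site, and of 9.30 to 12.2 in retina and 14.2 to 15.5 in cortex at site 2.

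Beside Hba-a1 and Slc4a1, the 5 tested platelet genes had 1 higher and 1 lower in retina at the first site and 1 lower at site 2. At site 2, 2 were lower without array 4 of retina or array 1 or 2 of cortex, and 1 was higher with quantile normalization or without array 5 of cortex. At the first site 0 were higher with the floor at the 25th percentile. Their summed intensity was 0.53 to 0.68 in retina, against 2.34 to 2.90 in cortex at the first site, and 0.56 to 0.71 in retina and 2.19 to 3.34 in cortex at site 2. The lower gene was Pf4, platelet factor 4, at 0.0869 in retina, against 2.07 in cortex at the first site (23.9-fold lower) and 14.3-fold lower at site 2. Most of the platelet sum in cortex at the first site was Pf4. With the floor at the 25th percentile Pf4 was 10.6-fold and 9.97-fold lower. Of 12 white blood cell genes, 0 were higher at either site, 1 was lower at the first site and 2 at site 2, or 1 at site 2 when any of 7 arrays was left out. Their sums were 7.48 to 8.87 in retina, against 7.51 to 8.80 in cortex at the first site, and 8.12 to 8.71 in retina and 9.49 to 11.6 in cortex at site 2. Most of each sum was Cd79a, a B cell receptor chain, at 6.80 in retina, against 6.43 in cortex at the first site, and at 6.65 in retina and 6.83 in cortex at site 2. Beside Slc2a1, 6 of 8 genes of retinal pigment epithelium were higher in retina at each site, and 1 was lower at site 2. Their sums overlapped at the first site, at 61.0 to 65.3 in retina and 55.6 to 73.4 in cortex, and at site 2 were 52.6 to 56.7 in retina and 73.0 to 89.5 in cortex. Most of each sum was Ttr, transthyretin, which the choroid plexus also makes and which was at 33.6 in retina and 81.1 in cortex at site 2. It was the gene that was lower there (2.41-fold), and it was named after its values were seen. The part of any of these cells in the members' differences was not tested.

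For each called member, the 3 genes whose probes ran most alike over the arrays were found by the root mean square difference of centred log2 intensity, among 9083 genes. This is a description of the profile, which the 4 group means dominate. Closest to Cldn5 over 20 arrays were Nipsnap3b (0.13), Smpdl3a (0.14) and Ddah2 (0.15). Closest to Tie1 over 19 arrays were Thbs3 (0.26), Mmp2 (0.28) and Slc6a4 (0.28). Closest to Slc2a1 were Calb2 (0.27), Anp32e (0.27) and Znrd1as (0.32), and closest to Hba-a1 were Npy (0.18), Plcb1 (0.18) and Mapre1 (0.20). The values are not scaled to the spread of each member's own profile, so they do not rank likeness between members.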

How the data were processed

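The deposited table holds 1 linear intensity per probe and array from 1-colour CodeLink arrays. Per the labels' protocols, biotin labelling followed the CodeLink Expression Assay protocol. For the background step, the scaling and the scanner software, the method is not given in the sources used here. Judged from the deposited intensities, background had been subtracted (143 values at or below 0) and each array scaled. There were 2080 blanks. Platform annotation gave 9378 probes 1 gene symbol, 8 several and 1114 none. RefSeq identifiers were found for 9323 probes and changed 0 symbols.

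Values at or below 0 were set missing and the rest put on the log2 scale. Probes with values on at least 3 of 5 arrays in each group were tested, 10339 of 10500. One linear model with 4 group means was fitted in limma 3.58.1 (R 4.3.3), with 2-sided moderated tests (16 residual and 2.16 prior degrees of freedom). The array medians differed by at most 0.06 in log2, and no further scaling was applied. On simulated data the same steps were tested first. For a gene with several probes, the one with the highest mean stood for it. Precision is limited by the number of arrays.

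The members and the gene lists were chosen with earlier results of these data known. The genes named from each list are those called alike at both sites, up to 4 in each direction by size, and the one whose mean difference over the sites was nearest 0, where opposite signs cancel. Alternatives covered normalization, low values, filters, the spread, a replicate block and leaving out arrays. Same-numbered arrays were not paired (10 correlations, -0.08 to 0.04). Sequences came from RefSeq (GRCm38.p6), and the table held none for Slc4a1. Slides and scans could not be used as blocks, since the table gives neither. Sequences and plots were handled in Python 3.11.15 (matplotlib 3.10.9, numpy 2.4.6).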

Additional observations from a re-analysis of the deposited data

Results flagged for a closer look

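Among 65 genes named above, each group of 5 arrays was checked for 1 array far from the other 4 by Dixon's gap test at the 95% level. It was met in 33 of 260 groups. The nominal rate of about 1 in 20 is no measure for this count, since many other probes stood apart too, as given below. Of the 33, 15 fell on array 5 of cortex at site 2 and 4 on array 2 of retina at site 2. Over all 10339 tested probes, array 5 of cortex at site 2 stood apart as high for 794 and as low for 1022. For array 2 of retina at site 2 the numbers were 189 and 98. Standing apart on these arrays was thus not particular to the genes named here. The 1 member among the 33 was Tie1, at 1.39 on array 2 of retina at site 2. That array was also high for Thbs3 (3.22) and Slc6a4 (0.522), which were picked for a profile like that of Tie1 on arrays that include this one, and low for Nid1 (0.0643). Array 5 of cortex at site 2 was high for Tek (3.94), Vegfd (1.80), Cldn11 (1.84), Myh11 (2.39) and Mapre1 (11.3). It was low for Rasip1 (0.457), Cav1 (1.42), Cldn18 (0.937), Slc7a5 (0.676), Itm2a (8.43), Slc2a4 (0.355), Col4a2 (0.798), Fech (1.49), Slc4a3 (3.69) and Cd79a (5.58).

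The remaining groups had 1 to 3 such genes per array. Array 1 of retina at the first site was high for Ptprb (1.78) and Cpox (0.791) and low for Znrd1as (1.90). Array 3 of retina at the first site was high for Slc16a1 (19.8) and low for Fech (1.05), and array 5 of that group was low for Ttr (34.2). Array 1 of cortex at the first site was low for Hbb-y (0.130) and Calb2 (6.29), and array 3 of that group for Fech (0.997). At site 2, retina array 5 was high for Marveld3 (1.15), Slc14a1 (3.12) and Nipsnap3b (2.87), and retina array 3 for Cldn7 (0.309) and Ddah2 (1.32).

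By limma's adjusted p under 0.05 alone, without the 2-fold minimum, the tissue difference itself differed between the sites for 3 of the genes. The share of all probes under this looser rule was not counted. For Hba-a1 the difference between the sites was -0.55, for Ttr -0.53 and for Slc2a3 -1.16, and only Slc2a3 was past 2-fold. The adjusted p of Hba-a1 was at or above 0.05 in 8 of 30 alternative settings.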

How the results depend on the processing

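The calls of Cldn5, Tie1, Slc2a1 and Hba-a1 between retina and cortex, and those of Slc2a1 between the sites, kept their direction and their side of the threshold in all 31 alternatives. Tie1 at site 2 ranged from -2.16 to -1.64. Over all probes, those called for site 2 minus first site numbered 645 in retina and 745 in cortex. Setting low values to the 25th percentile gave 312 and 396, and adding a pseudocount of the 5th percentile gave 345 and 464. For the difference between the sites, 75 were called, 41 with the pseudocount, 56 to 121 leaving out 1 array, and 133 without both arrays that stand apart, an alternative chosen after seeing the data. Leaving out 1 array moved Slc4a1, site 2 minus first site in cortex, over 0.70 to 1.18, and without both arrays it was 1.09 (adjusted p = 0.031 by limma), past 2-fold. Without both arrays, 15 endothelial genes were lower in retina at site 2, and 8 barrier genes. The replicate block changed no call among 229 results (Slc4a1 between sites in cortex, adjusted p = 0.0509 by limma, stayed uncalled), and with it Tie1 at site 2 was -1.88. The difference between the sites cannot be fitted with only the compared groups, and Slc4a1 has no value when dim probes are left out. Counts of lower genes at site 2 ranged from 0 to 3 for mural cells and from 0 to 2 for white blood cells. Dim probes, Slc4a1, Hba-x, Lama4, Marveld3 in cortex, and Angpt1, Cldn11, Vegfd and Pf4 in retina among them, are limited by the unknown background step. Except as stated, the cause of a change was not tested.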
